A study of Mus musculus with 8 samples.

Results

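The 10 genes described here are 7 that encode proteins of the platelet alpha granule (Pf4, Ppbp, Vwf, Thbs1, Selp, Mmrn1 and F5) and 3 that encode cytoskeleton or signalling proteins of the platelet (Plek, Nrgn and Tubb1). They were taken by symbol from a list chosen for their function, with earlier results of these data known, and all 10 were found among the 24411 genes of the tables. They were measured in common myeloid progenitors of bone marrow from wild-type C57BL/6 mice, sorted into 4 populations with 2 libraries each. All populations were positive for KIT and negative for CD16/32. CD34bright cells carried CD41 and CD9. CD34dim cells carrying both proteins were split by their CD48 into CD48dim and CD48bright. A final gate took CD34dim cells without CD41 or CD9, named CD41/CD9-negative below. Groups follow these gates, and the labels leave it unsaid if duplicates are from different animals or sorts, so the p-values here rest on library-to-library spread that could be technical. None of the 10 genes encodes a protein used in the sort.

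Platelets are shed by megakaryocytes, which fill them with granules before release. The alpha granule holds chemokines, adhesive proteins and clotting factors that leave the platelet when it is activated, and P-selectin sits in its membrane. A ring of microtubules built from a lineage-restricted tubulin keeps the platelet in its disc shape. Several of these genes are also transcribed elsewhere: Vwf, Selp, Mmrn1 and Thbs1 in endothelial cells, Vwf and Selp in part of the stem cells, and Plek in many leukocytes.

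Levels are given as CPM, the count of a gene scaled to the TMM-adjusted total of its library, with mean ± SD over 2 libraries. The libraries held 7237587 to 20632005 expected counts. The CD48dim pair was the least alike, with a Spearman correlation across genes of 0.836 between its libraries against 0.954 to 0.976 within the other populations. CD48dim replicate 2 was the smallest library and held 38950 CPM of the nuclear RNA Malat1, against 5004 to 14870 CPM in the other 7. Itga2b, which encodes CD41, lay at 2.51 ± 0.462 CPM in CD41/CD9-negative cells and at means of 79.0 to 133.7 CPM in the gates positive for it. Cd48 lay at 26.4 ± 13.4 CPM in CD48dim and at means of 182.8 to 233.5 CPM elsewhere. In a bulk library, fewer cells of a type and less RNA per cell cannot be told apart.

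The members lie on 6 chromosomes in mm10, with positions from RefSeq on GRCm38.p6, the same assembly. Ppbp (chromosome 5, 90768518 to 90770063) and Pf4 (chromosome 5, 90772435 to 90773383) are neighbours with 2371 bases between them. Selp (chromosome 1, 164115264 to 164150026) and F5 (chromosome 1, 164151835 to 164220277) also lie side by side, 1808 bases apart. Mmrn1 (60944317 to 60989378) and Vwf (125552948 to 125686679) are on chromosome 6, and Thbs1 (118111876 to 118127133) and Tubb1 (174450595 to 174458380) on chromosome 2. Plek is on chromosome 11 (16971206 to 17008718) and Nrgn on chromosome 9 (37544493 to 37552745). All 10 are protein-coding. The libraries were not stranded, per the labels, and 1 other gene of the tables, Gm16548, overlaps Selp and F5, with 140 counts over the 8 libraries against 2043 and 1690. All 80 expected counts of the members were exactly whole as deposited.

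Promoter sequences from RefSeq (GRCm38.p6) matched 8 of the 10 members by symbol. Shown are those of the 3 members whose difference passed a test, Mmrn1, Pf4 and F5, and that of Plek, whose level varied least between populations. Each runs 5′ to 3′ on the gene's strand from 250 bases before to 50 bases after the start: chr6:60944067-60944366 (plus strand) for Mmrn1, chr5:90772185-90772484 (plus) for Pf4, chr1:164151585-164151884 (plus) for F5 and chr11:17008669-17008968 (minus) for Plek. Capitals mark matches on either strand to letters bound by GATA factors (AGATAA, its form with a final G written AGATAG, the form that begins with T written TGATAA, and the form with both written TGATAG), ETS factors (AGGAAG and the form with a first C written CGGAAG), RUNX factors (TGTGGT) or NF-E2 (TGAGTCA).
Mmrn1: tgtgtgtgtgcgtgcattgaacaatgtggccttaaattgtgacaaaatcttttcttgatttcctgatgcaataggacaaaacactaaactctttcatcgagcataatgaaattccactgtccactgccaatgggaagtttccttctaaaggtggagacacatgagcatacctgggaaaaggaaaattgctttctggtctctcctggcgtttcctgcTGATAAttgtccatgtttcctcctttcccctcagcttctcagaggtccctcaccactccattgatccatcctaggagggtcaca
Pf4: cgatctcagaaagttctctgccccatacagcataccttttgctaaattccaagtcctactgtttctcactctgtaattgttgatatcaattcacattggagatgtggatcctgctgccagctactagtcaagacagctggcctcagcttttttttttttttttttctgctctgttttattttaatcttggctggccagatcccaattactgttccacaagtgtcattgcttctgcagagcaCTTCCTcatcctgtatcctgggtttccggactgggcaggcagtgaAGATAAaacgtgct
F5: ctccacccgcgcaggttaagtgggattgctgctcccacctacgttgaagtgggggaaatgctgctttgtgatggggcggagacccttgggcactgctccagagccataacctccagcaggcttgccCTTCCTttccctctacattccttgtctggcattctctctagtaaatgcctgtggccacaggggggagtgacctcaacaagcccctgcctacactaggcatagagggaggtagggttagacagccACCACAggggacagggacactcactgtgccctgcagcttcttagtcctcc
Plek: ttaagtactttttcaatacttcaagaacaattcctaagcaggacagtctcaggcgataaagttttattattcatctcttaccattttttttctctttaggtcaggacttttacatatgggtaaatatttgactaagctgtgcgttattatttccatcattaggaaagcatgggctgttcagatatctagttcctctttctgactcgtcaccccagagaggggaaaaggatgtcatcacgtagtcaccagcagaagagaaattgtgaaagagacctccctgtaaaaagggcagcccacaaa
The Pf4 window held 1 GATA match, starting at base 37 of the transcript, and 1 ETS match, starting 9 bases before the start. The Mmrn1 window held 1 GATA match, starting 34 bases before the start, and no other. The F5 window held 1 ETS match 124 bases before the start and 1 RUNX match at the first transcribed base, and the Plek window held none of these letters. Over the 8 members with a sequence, 2 held a GATA match, 4 an ETS match, 1 a RUNX match and 0 an NF-E2 match. Of 32851 promoter windows of the same length, 29.8% held a GATA match, 46.5% an ETS match, 16.8% a RUNX match and 5.2% an NF-E2 match. A match describes the letters and is not evidence of binding.

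By mean CPM, 9 of the 10 members were highest in CD48dim, Plek being the exception. Both CD48dim libraries lay above all 6 others for 6 members (Ppbp, Thbs1, Mmrn1, F5, Nrgn and Tubb1). Among the 9 members that passed the filter on low counts this held for 5, against 11.6% of all genes tested. Of these 5, Ppbp passed the filter through its CD48dim libraries alone (0.954 and 2.06 CPM, at most 0.516 CPM elsewhere). Its place above the others was therefore largely set by the filter. Only 1 tested member, Pf4, had both CD41/CD9-negative libraries below all others, against 6.29% of all genes. Of the 9 tested members, 1 (Mmrn1) passed the test for any difference among the 4 populations (edgeR quasi-likelihood, Benjamini-Hochberg over 13177 genes), where 2.44% of all genes passed.

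**Figure D1:**
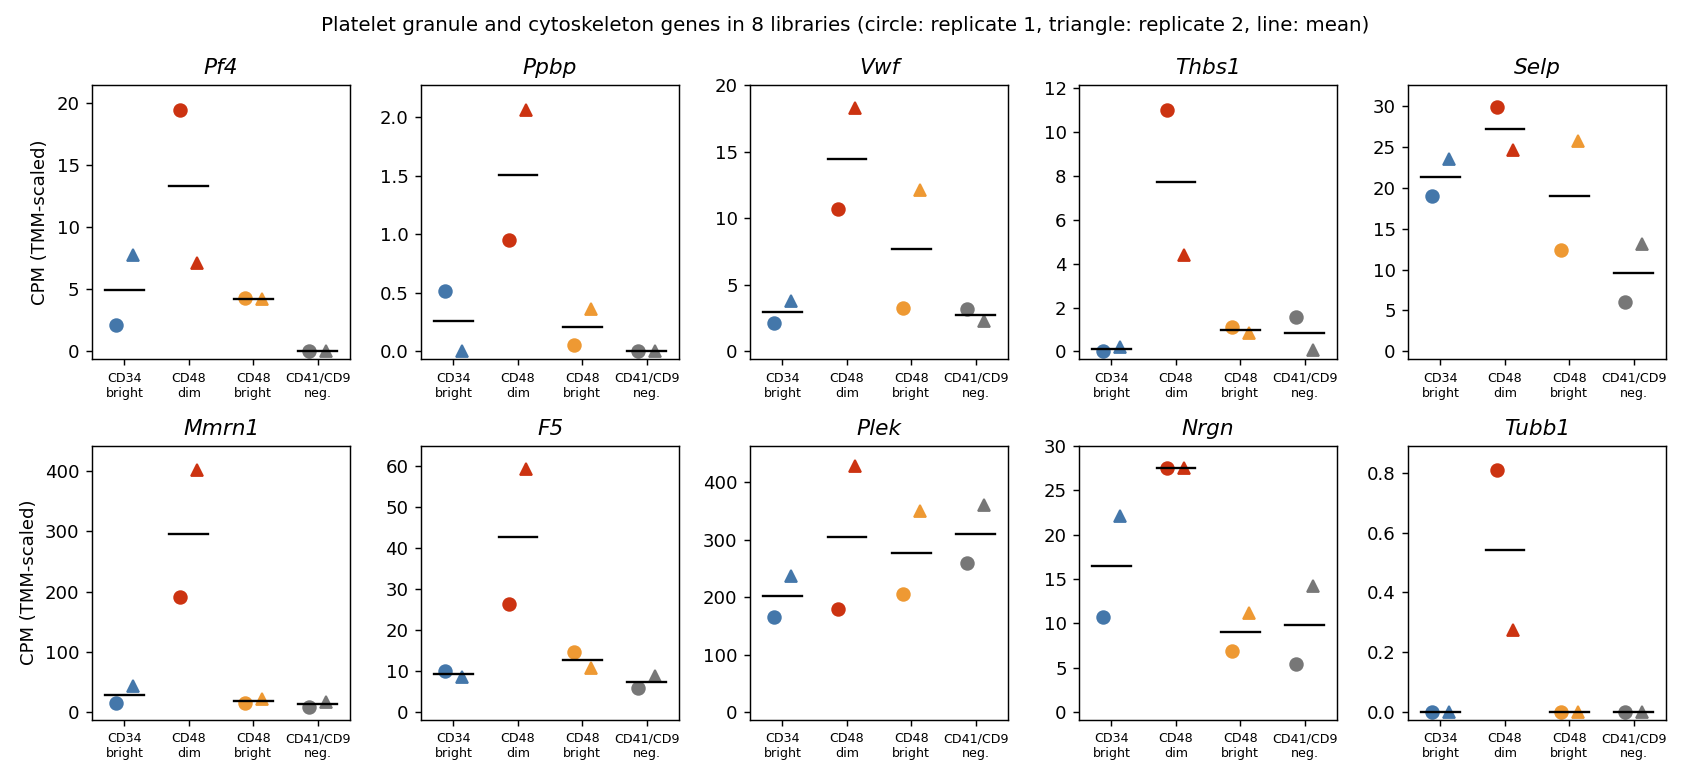
CPM of the 10 genes in each of the 8 libraries, by population; circles are replicate 1, triangles replicate 2 and lines the mean of 2. Each panel has its own linear axis. Both CD48dim points lie above all others for Ppbp, Thbs1, Mmrn1, F5, Nrgn and Tubb1. The Plek points overlap between all populations except CD34bright and CD41/CD9-negative.

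Mmrn1 encodes multimerin 1, a large alpha granule protein that binds factor V. Its level was 190.4 and 401.1 CPM in the CD48dim libraries, 15.2 and 42.7 CPM in CD34bright, 14.6 and 21.3 CPM in CD48bright, and 8.81 and 17.5 CPM in CD41/CD9-negative. Both CD48dim libraries stood far above the other 6, and the 3 other populations overlapped one another. Against CD48dim the log2 fold change was -4.05 ± 0.64 (SE) in CD48bright (adjusted p = 0.0453, edgeR) and -4.49 ± 0.65 in CD41/CD9-negative (adjusted p = 0.00804). In CD34bright it was -3.35 ± 0.62, which did not pass (adjusted p = 0.0530), and passed once the replicate number was blocked (adjusted p = 0.00573). The test of any difference gave an adjusted p of 0.0102 for Mmrn1. That call was lost without CD41/CD9-negative replicate 1 (adjusted p = 0.0514), as was the difference between CD41/CD9-negative and CD48dim (adjusted p = 0.0903). The CD48bright call was lost without CD48bright replicate 1 or 2 (adjusted p = 0.241 and 0.232), without CD41/CD9-negative replicate 1 or 2 (0.0766 and 0.0787), with limma-voom (0.0573) and in a fit of the 4 libraries compared (0.241).

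F5 encodes coagulation factor V, the cofactor that speeds thrombin formation and is stored in the granule with multimerin. It lay at 26.4 and 59.2 CPM in CD48dim, 10.1 and 8.46 CPM in CD34bright, 14.7 and 10.8 CPM in CD48bright, and 5.90 and 8.80 CPM in CD41/CD9-negative. Both CD48dim values were above every other. CD48bright lay above CD34bright with no overlap, but that difference did not pass (log2 fold change of CD34bright -0.46 ± 0.55, unadjusted p = 0.417, edgeR). Against CD48dim the CD41/CD9-negative level fell by 2.54 ± 0.58 on the log2 scale (adjusted p = 0.0434, edgeR). The log2 fold changes of CD34bright (-2.21 ± 0.57, adjusted p = 0.102) and CD48bright (-1.74 ± 0.56, adjusted p = 0.213) did not pass. The F5 call was lost without any 1 of the CD34bright libraries (adjusted p = 0.0823 and 0.0884), the CD48bright libraries (0.0692 and 0.0694) or the CD41/CD9-negative libraries (0.299 and 0.219). It was also lost with limma-voom (0.0645) and in the fit of the 4 libraries compared (0.178).

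Selp encodes P-selectin, the adhesion receptor that moves from the granule membrane to the platelet surface on activation. It lay at 29.8 and 24.6 CPM in CD48dim, 19.0 and 23.5 CPM in CD34bright, 12.4 and 25.7 CPM in CD48bright, and 6.06 and 13.1 CPM in CD41/CD9-negative. CD48bright replicate 2 lay above CD48dim replicate 2, so these populations overlapped. The largest log2 fold change against CD48dim, -1.51 ± 0.57 in CD41/CD9-negative, did not pass (adjusted p = 0.188, edgeR). Whether F5 and its neighbour Selp differ in these contrasts was not tested.

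Vwf encodes von Willebrand factor, which tethers platelets to damaged vessel walls. It lay at 10.7 and 18.3 CPM in CD48dim, 2.17 and 3.77 CPM in CD34bright, 3.28 and 12.2 CPM in CD48bright, and 3.23 and 2.26 CPM in CD41/CD9-negative. CD48bright replicate 2 lay inside the range of CD48dim, and CD48bright replicate 1 inside that of CD34bright. The log2 fold changes against CD48dim were -2.29 ± 0.85 in CD34bright (adjusted p = 0.197, edgeR), -0.91 ± 0.81 in CD48bright (adjusted p = 0.644) and -2.40 ± 0.85 in CD41/CD9-negative (adjusted p = 0.164), and none passed.

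Thbs1 encodes thrombospondin 1, an adhesive protein that platelets, monocytes and stromal cells all release. It lay at 11.01 and 4.40 CPM in CD48dim, 1.09 and 0.823 CPM in CD48bright, 1.57 and 0.0807 CPM in CD41/CD9-negative, and 0 and 0.213 CPM in CD34bright. The CD48dim libraries held 182 counts together and the CD34bright libraries 3, a ratio of 97.1 per scaled library total (exact 95% interval 32.7 to 475, counting error only). The ratio was 49.0 without CD48dim replicate 1, 122.8 without its replicate 2, 40.8 without CD34bright replicate 1 and at least 56.3 without CD34bright replicate 2, which held all 3 counts. The CD34bright test against CD48dim did not pass (adjusted p = 0.136, edgeR), and the values in CD41/CD9-negative differed 19.5-fold between the 2 libraries.

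Pf4 and Ppbp encode the platelet chemokines platelet factor 4 (CXCL4) and pro-platelet basic protein (CXCL7), classic products of the maturing megakaryocyte. Pf4 lay at 19.5 and 7.15 CPM in CD48dim, 2.17 and 7.75 CPM in CD34bright, 4.27 and 4.21 CPM in CD48bright, and 0 in both CD41/CD9-negative libraries. The values of CD48dim and CD34bright overlapped, since CD34bright replicate 2 exceeded CD48dim replicate 2, and the CD41/CD9-negative population stood below all others. Against a floor of 3 counts over both CD41/CD9-negative libraries (0.120 CPM), Pf4 was at least 127-fold higher in CD48dim, at least 37.7-fold in CD34bright and at least 35.5-fold in CD48bright. These folds are of counts pooled over the 2 libraries, and 1 library moves them by more than 1.5 times. The CD48dim fold was 59.8 without CD48dim replicate 1, 162.7 without its replicate 2, and 62.6 and 64.2 with 1 CD41/CD9-negative library. The CD34bright fold was 64.8 without CD34bright replicate 1, 18.1 without its replicate 2, and 18.6 and 19.1 with 1 CD41/CD9-negative library, and the CD48bright fold was 17.5 and 18.0 in the last case.

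The Pf4 difference between CD41/CD9-negative and CD48dim passed (adjusted p = 0.0146, edgeR). It was lost without CD41/CD9-negative replicate 1 or 2 (adjusted p = 0.106 and 0.102) and in the fit of the 4 libraries compared (0.0698). Against CD34bright and CD48bright the CD41/CD9-negative difference of Pf4 did not pass (adjusted p = 0.0521 and 0.102). In fits of the 4 libraries compared these 2 adjusted p-values were 0.00236 and 0.0349, and the first was 0.0415 under the replicate block. The test of any difference gave 0.0518 for Pf4, and 0.0408 with the replicate block.

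Ppbp, next to Pf4 on the chromosome, was read at far lower levels. It had 13 and 15 counts in CD48dim (0.954 and 2.06 CPM), 10 and 0 in CD34bright, 1 and 4 in CD48bright, and 0 in both CD41/CD9-negative libraries. It was at least 11.2-fold higher in CD48dim than the CD41/CD9-negative floor (7.98 to 17.2 with 1 CD48dim library, 5.53 and 5.67 with 1 CD41/CD9-negative library), and no test of Ppbp passed (adjusted p = 0.453 for any difference, edgeR).

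Tubb1 encodes beta-1 tubulin, the tubulin of the platelet's microtubule ring. It was read with 11 and 2 counts in the CD48dim libraries (0.808 and 0.275 CPM) and with 0 counts in each of the other 6 libraries. It did not pass the filter on low counts and was not tested in the model used for the others. Over the pooled libraries it was at least 6.94-fold higher in CD48dim than the floor of CD34bright (0.0897 CPM), at least 6.25-fold higher than that of CD48bright and at least 5.20-fold higher than that of CD41/CD9-negative. These folds rest on CD48dim replicate 1, without which they were 3.07, 2.76 and 2.30, and with 1 library of the population at 0 they were 2.27 to 4.02. Without the filter no test of Tubb1 passed, the smallest adjusted p being 0.536.

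Nrgn encodes neurogranin, a calmodulin-binding protein best known from neurons whose RNA is also carried by platelets. It lay at 27.5 and 27.5 CPM in CD48dim, 10.7 and 22.1 CPM in CD34bright, 6.92 and 11.2 CPM in CD48bright, and 5.43 and 14.2 CPM in CD41/CD9-negative. Both CD48dim values were above all others, with CD34bright replicate 2 the closest. The log2 fold changes against CD48dim of -0.74 ± 0.63, -1.61 ± 0.64 and -1.48 ± 0.64 in CD34bright, CD48bright and CD41/CD9-negative, in that order, did not pass (adjusted p = 0.556, 0.301 and 0.242, edgeR).

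Plek encodes pleckstrin, the main protein kinase C substrate of platelets, which acts on the cytoskeleton and is also made in leukocytes. It lay at 180.4 and 428.7 CPM in CD48dim, 166.5 and 236.9 CPM in CD34bright, 205.6 and 349.6 CPM in CD48bright, and 259.9 and 360.1 CPM in CD41/CD9-negative. All 4 populations overlapped except CD34bright and CD41/CD9-negative, and the library numbered 2 was the higher one in each of the 4 populations. The same held for Mmrn1, and for Nrgn outside CD48dim, where its libraries were level (27.46 and 27.48 CPM). The log2 fold change of Plek between CD41/CD9-negative and CD48dim was 0.03 ± 0.46 (adjusted p = 0.983, edgeR), and the test of any difference gave an adjusted p of 0.848. The sign of that fold change turned without CD48dim replicate 1 (-0.46) or CD41/CD9-negative replicate 2 (-0.22).

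**Figure D2:**
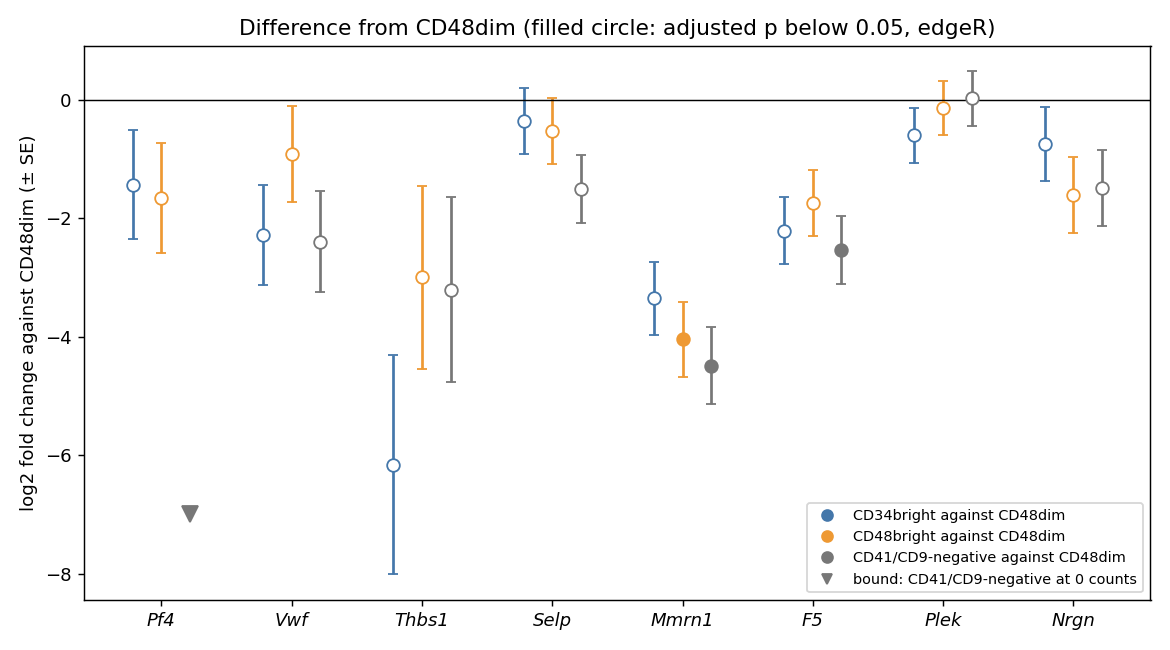
Log2 fold change (± SE, edgeR) of CD34bright, CD48bright and CD41/CD9-negative against CD48dim for 8 of the genes. Ppbp and Tubb1, with 43 and 13 counts in all, are not drawn, and the triangle is the bound for Pf4 in CD41/CD9-negative, which had 0 counts and passed the test. Filled circles mark the calls: Mmrn1 in both CD48bright and CD41/CD9-negative, F5 in CD41/CD9-negative.

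Counted over the pairs of populations, 1 member was lower in CD48bright than in CD48dim, where 0.387% of all genes were called and 0.114% were called higher in CD48dim. Of the 9 tested members 0 were called between CD34bright and CD48dim by edgeR, beside 0.577% of all genes, with 0.212% called higher in CD48dim. In that comparison DESeq2 called 3 members among 1288 genes, and limma-voom 1 member among 45 genes. By edgeR 4 members had an unadjusted p below 0.05, and the share of all genes at that level was not counted. Between CD41/CD9-negative and CD48dim 3 members were called, all higher in CD48dim, where 4.02% of all genes were called and 2.04% higher in CD48dim. All 9 signs were negative in the first 2 of these comparisons and 8 of 9 in the third. Ppbp is among them each time, and it passed the filter on low counts through CD48dim alone. The median log2 fold change of the members was -1.65, -2.21 and -2.54 in CD48bright, CD34bright and CD41/CD9-negative, against -0.03, -0.07 and -0.06 over all tested genes. The 3 comparisons share the CD48dim libraries and are not independent.

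Among the 3 populations other than CD48dim, edgeR called 0 members in each pair. CD34bright against CD48bright had 0% of all genes called, 0 members at an unadjusted p below 0.05 and 0 members called by DESeq2 or limma-voom. CD41/CD9-negative against CD48bright and CD34bright had 0.212% and 0.842% of all genes called, and in each of them 1 member, Pf4, had an unadjusted p below 0.05. Pf4 was called in both by DESeq2, by edgeR without the filter and in the 4 libraries compared, and in the second also with RLE size factors and with the replicate block. With genes at 0 counts set to their bound, the median log2 fold changes of the members in these 3 pairs were 0.16, -0.47 and -0.74.

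Compared per length, the members spanned a wide range of levels. In CPM per kilobase of effective length, Plek lay at 78.5 ± 45.3 in CD48dim, Mmrn1 at 67.3 ± 33.9, Pf4 at 38.1 ± 24.9 and Nrgn at 26.1 ± 0.0226. Selp lay at 8.50 ± 1.15 and F5 at 5.95 ± 3.22, and Ppbp (1.79 ± 0.931), Vwf (1.69 ± 0.622), Thbs1 (1.38 ± 0.841) and Tubb1 (0.307 ± 0.213) followed. Neighbours in this order lay apart by more than their SDs at 3 places, between Nrgn and Selp, between F5 and Ppbp and between Thbs1 and Tubb1, and overlapped elsewhere. In the other populations Plek kept a level of 52.1 to 80.1 per kilobase, while Mmrn1 lay at 2.999 to 6.60. The short Pf4 transcript thus ranked above Selp, F5 and Vwf per kilobase in the 3 CD41+ populations although its CPM was below that of Selp and F5 in each.

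**Figure D3:**
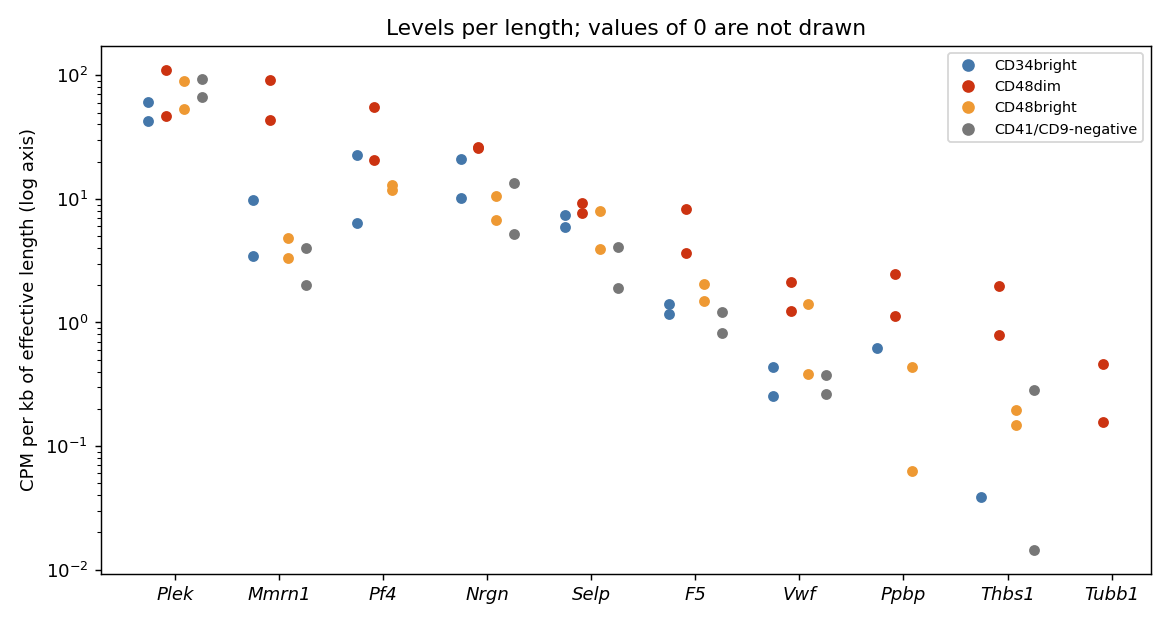
CPM per kilobase of effective length (log axis) of the 10 genes in each library, coloured by population; genes run from the highest to the lowest mean, and values of 0 are not drawn. Plek stands at 43.0 to 110.6 in all 8 libraries, while Mmrn1 reaches that range only in CD48dim.

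The members did not vary as 1 block over the 8 libraries. On log2 CPM the highest Pearson correlation between 2 members was that of Mmrn1 with F5 (0.901), then Mmrn1 with Nrgn (0.881) and F5 with Ppbp (0.852). Selp correlated with Pf4 at 0.831 and with its neighbour F5 at 0.572, and Ppbp with its neighbour Pf4 at 0.604. Plek correlated with no other member above 0.436. These are descriptions over 8 points that come from 4 populations and share library depth. Those of Ppbp rest on 43 counts in all, with several libraries at 0. Outside the list, among 10597 genes with a mean of at least 8 CPM in some population, the most similar profiles were those of Sdpr (0.988) and Tfr2 (0.981) to Pf4 and of Meg3 (0.986) and Nwd1 (0.983) to Mmrn1. The closest to F5 were Tars2 (0.994) and Pick1 (0.987), to Vwf Pigo (0.974) and Ciz1 (0.969), and to Selp Nat10 (0.975) and Nav2 (0.954). Those closest to Plek were Dmtf1 (0.985) and Ids (0.980), and to Nrgn Adgrl4 (0.929) and Dnajc27 (0.928).

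Other genes of the granule and the cytoskeleton are given from lists of their own. Of 16 other alpha granule cargo genes tested, 3 passed the test of any difference (F13a1, Fn1 and Timp3), beside 2.44% of all genes. F13a1, which encodes the A chain of clotting factor XIII and is also made by monocytes, lay at 29.6 ± 1.68 CPM in CD48dim but 376.9 ± 91.7 CPM in CD41/CD9-negative. Fn1, fibronectin, lay at 9.79 ± 4.52 CPM in CD48dim and 62.5 ± 5.63 and 70.3 ± 11.9 CPM in CD48bright and CD41/CD9-negative. Timp3, a metalloprotease inhibitor, lay at 20.0 ± 5.94 CPM in CD48dim and at means of 0.871 to 1.37 CPM elsewhere. Gas6 did not pass (adjusted p = 0.197, edgeR). The median of this list against CD48dim was 0.44, 0.30 and -0.04 on the log2 scale in CD48bright, CD34bright and CD41/CD9-negative. Between CD41/CD9-negative and CD48dim, 3 of the 16 were called, 2 higher and 1 lower, beside 4.02% of all genes.

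Of 25 genes of granule biogenesis and secretion, 2 passed the test of any difference, beside 2.44% of all genes. Rab27b, a small GTPase of granule docking, lay at 27.1 ± 0.564 CPM in CD48dim, 7.998 ± 2.56 in CD34bright, 11.2 ± 1.80 in CD48bright but 0.321 ± 0.231 in CD41/CD9-negative. Slc35d3, needed for dense granules, was highest in CD41/CD9-negative cells at 30.1 ± 9.78 CPM, against 7.97 ± 6.60 in CD48dim and 1.54 ± 1.23 and 1.14 ± 0.448 in CD34bright and CD48bright. Rab38 and Lyst did not pass the test of any difference (adjusted p = 0.0758 and 0.193, edgeR), and Rab38 passed with the replicate block (adjusted p = 0.0496). Between CD41/CD9-negative and CD48dim 2 of the 25 were called, Rab27b and Rab38, both lower in CD41/CD9-negative, beside 4.02% of all genes. The list median against CD48dim was -0.20, -0.25 and -0.27 on the log2 scale in CD48bright, CD34bright and CD41/CD9-negative.

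Of 20 other cytoskeleton genes tested, 2 passed, beside 2.44% of all genes. Tpm4, a tropomyosin, lay at 402.0 ± 66.5 CPM in CD41/CD9-negative and 15.6 ± 0.680 CPM in CD48dim. Tuba8, an alpha tubulin, lay at 4.45 ± 0.934 CPM in CD41/CD9-negative and at means of 28.9 to 39.0 CPM in the others. Myh10 and Vcl did not pass (adjusted p = 0.0848 and 0.255, edgeR). The median of the cytoskeleton list against CD48dim was -0.25, -0.17 and -0.33 in CD48bright, CD34bright and CD41/CD9-negative, where that of all genes was -0.03, -0.07 and -0.06. Whether these lists differ from the members was not tested.

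Of the platelet surface receptors 7 of 15 tested genes were called lower in CD41/CD9-negative than in CD48dim cells. The same held for 7 of 13 megakaryocyte transcription factors, and 0 genes of either list were called higher. Of all genes 4.02% were called, and 2.04% were called higher in CD48dim. Some receptors went the other way without a call. The CD41/CD9-negative libraries held 16.84 and 12.43 CPM of P2ry12, against 2.496 and 4.672 CPM for CD48dim. For Tbxa2r these values were 30.53 and 21.07 CPM, against 16.88 and 0 CPM. The receptor list holds Itga2b and Cd9, whose proteins were sorted on. Gp9, of the von Willebrand factor receptor, lay at 47.4 ± 41.2 CPM in CD48dim and 1.88 ± 0.767 in CD41/CD9-negative, and Gp1ba did not pass the test of any difference (adjusted p = 0.0656, edgeR), except with the replicate block (0.0275). Among the factors Mecom, Gata2, Tal1 and Gfi1b had the smallest p, and Gfi1b lay at 106.4 ± 35.2 CPM in CD48dim and 21.6 ± 0.399 in CD41/CD9-negative. Between CD48bright and CD48dim 1 of the factors was called, Mecom, which was higher in CD48dim. Of all genes 0.387% were called there, and 0.114% were called higher in CD48dim. In the test of any difference Tpm4 and Itga2b kept their call in 14 of 14 alternatives. F13a1 and Mecom lost it without CD41/CD9-negative replicate 1 (adjusted p = 0.0616 and 0.0514, edgeR), and Fn1, Rab27b, Gata2 and Tal1 without either library of that population (highest adjusted p = 0.0903, 0.124, 0.112 and 0.180). Timp3 kept it in 9, Tuba8 and Gfi1b in 8, and Slc35d3 and Gp9 in 7 of the 14, lost mainly when a library of a population other than CD48dim was left out.

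Markers of other cell types were measured in the same libraries. The 9 stem cell markers reached sums of 910.3 and 1388 CPM in CD48dim and of 111.9 to 318.1 CPM in the other 6 libraries, and 1 gene, Hlf, gave 602.0 and 1032 CPM of the CD48dim sums. Hlf did not pass the test of any difference (adjusted p = 0.0585, edgeR), except with the replicate block (0.00506). Against CD48dim 5 of the 9 were lower in CD41/CD9-negative, where 4.02% of all genes were called and 2.04% higher in CD48dim, among them Procr (51.1 ± 4.74 against 1.44 ± 1.04 CPM) and Esam (45.9 ± 11.1 against 0.483 ± 0.572 CPM). The 10 mature neutrophil markers reached a sum of 4175 CPM in CD48dim replicate 1 and 624.8 CPM in its replicate 2. The same sum was 702.0 and 49.9 CPM in the CD41/CD9-negative libraries, and 115.2 to 165.6 CPM in CD34bright and CD48bright. Of the 10, S100a8 and Cxcr2 passed the test of any difference, beside 2.44% of all genes. S100a8 had its highest mean in CD48dim (590.0 ± 565 CPM) and Cxcr2 in CD34bright (71.4 ± 21.9 CPM). S100a8 kept its call in 9 of 14 alternatives, lost with limma-voom and without any 1 library of CD34bright or CD48bright (highest adjusted p = 0.0863, edgeR). Cxcr2 kept it in 11, lost without CD34bright replicate 2 or either CD41/CD9-negative library (highest 0.0970). The 7 haemoglobin and red cell markers summed to 261.0 CPM in CD48dim replicate 1, 40.3 CPM in its replicate 2 and 6.60 to 34.5 CPM elsewhere, and none of the 7 passed in edgeR (3 at an unadjusted p below 0.05), while DESeq2 called Hbb-bt and Slc4a1 and the replicate block Hba-a2 (adjusted p = 0.0396). CD48dim replicate 1, which had the most of these, was also the higher of the 2 CD48dim libraries for Pf4, Thbs1, Selp and Tubb1, while replicate 2 was higher for Mmrn1, F5, Vwf, Ppbp and Plek. The part of these cells in the members' levels was not tested.

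Endothelial cells transcribe several of the members. The 13 endothelial markers summed to 82.9 and 61.3 CPM in CD48dim and 16.2 to 55.2 CPM elsewhere, with 41.6 and 47.5 CPM of the CD48dim sums from Robo4. Robo4 passed the test of any difference (adjusted p = 0.0242, edgeR), with means of 44.6 ± 4.19 CPM in CD48dim and 3.72 to 5.15 CPM elsewhere, and kept its call in 10 of 14 alternatives, lost without any 1 library of CD34bright or CD41/CD9-negative (highest adjusted p = 0.0967). The endothelial cadherin gene Cdh5 passed as well (adjusted p = 0.0465, edgeR), and kept its call in 7 of 14 alternatives. Of the 7 endothelial markers tested, 1 was called higher (Cdh5) and 1 lower (Robo4) in CD41/CD9-negative than in CD48dim, beside 4.02% of all genes. Cdh5 was at 0 counts in both CD48dim libraries and at 12.4 and 4.76 CPM in CD41/CD9-negative. Sox17, Plvap, Stab1, Stab2 and Ramp2 were also at 0 counts in both CD48dim libraries, and Sox17 in all 8. Of the others, Kdr had 32 and 2 counts in the CD48dim libraries, Flt4 11 and 0, Sox18 9 and 0, Cldn5 2 and 0 and Egfl7 375 and 26, so replicate 1 was the higher for each of these 5. Kdr was at 22 and 69 counts in CD34bright and did not pass (adjusted p = 0.399, edgeR). Emcn was at 9.76 and 9.89 CPM in CD48dim and at 0.731 to 6.47 CPM in the other 6 libraries, and did not pass (adjusted p = 0.508, edgeR). The 8 stromal markers summed to 27.8 and 51.7 CPM in CD48dim and 48.4 to 91.5 CPM elsewhere, and 0 of the 4 tested were called. Most of each sum came from Pdgfrb (23.2 and 40.3 CPM in CD48dim, 47.2 to 89.5 CPM elsewhere). Col1a2 and Lepr had their highest means in CD48dim (4.74 ± 5.15 and 1.70 ± 1.88 CPM), and Col1a1 in CD48bright (1.20 ± 1.40 CPM). The 8 monocyte markers summed to 782.9 and 389.3 CPM in CD48dim and 507.3 to 1438 CPM elsewhere. Lyz2 gave 564.9 and 275.9 CPM of the CD48dim sums, and lay at 124.5 to 491.3 CPM elsewhere. Of the 8, 3 passed (Cx3cr1, Ms4a6c and Csf1r), beside 2.44% of all genes, all 3 with their lowest mean in CD48dim. Csf1r lay at 3.73 ± 3.34 CPM in CD48dim against 133.0 ± 28.7 CPM in CD41/CD9-negative.

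**Figure D4:**
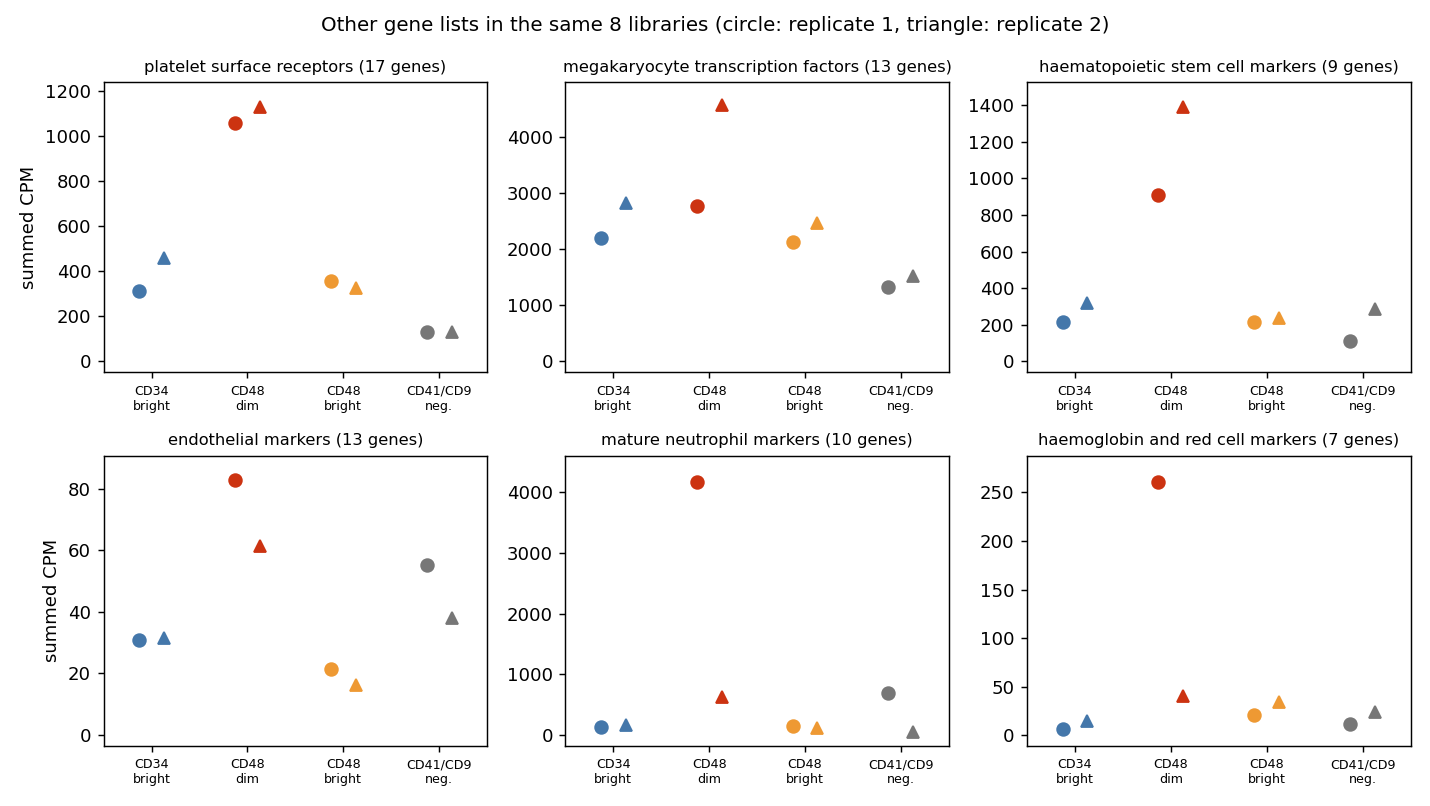
Summed CPM of 6 other gene lists in each of the 8 libraries; circles are replicate 1 and triangles replicate 2. Receptor and stem cell sums are highest in both CD48dim libraries, while neutrophil and red cell sums are highest in CD48dim replicate 1.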

How the data were processed

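RNA from the 4 sorted populations (2 libraries each) was amplified from 5 ng with the Ovation system and sequenced unstranded, per the labels' protocols. The authors deposited expected counts per gene from RSEM 1.3.2, with STAR 2.7.2a and mm10 named in the submitters' processing notes; their settings are not given. The effective length column, also deposited, served only for levels per kilobase. At most 2.2% of genes in a library had an expected count that was not whole, and these were rounded.

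Counts of 24411 genes were filtered (edgeR's filterByExpr, 13177 kept) and TMM-scaled. They were fitted with edgeR 4.0.16 (R 4.3.3) with 1 mean per population, using the quasi-likelihood F-test, and p-values were adjusted by Benjamini-Hochberg over all 13177 genes with a threshold of 0.05. The residual degrees of freedom were 4, the prior 5.46 and the common biological coefficient of variation 49.8%. SE is the log2 fold change divided by the root of F. Floors are 3 counts over a population's pooled libraries; floors and intervals cover counting error only. Correlations used edgeR's log2 CPM with a prior count of 2. The procedure was tested on simulated data.

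The named genes are the 10 members, up to 4 genes of each of 11 other lists with the smallest p in the test of any difference, and the 2 most similar genes to each member reaching a mean of 8 CPM in a population. Endothelial genes beyond the 4, and folds with a library left out, were added after values were seen. Members and lists were chosen with earlier results of these data known. Titles number the libraries 1 and 2; same-numbered libraries deviated together (r = 0.112 to 0.222 across genes over 6 pairs of populations), and what the numbers mark is not given. Alternatives were RLE size factors, no filter, DESeq2 1.42.0, limma-voom (limma 3.58.1), a replicate block, the 4 libraries compared only, each library left out, and library totals without TMM, the last chosen after seeing the data. Promoters are RefSeq's on GRCm38.p6. Single-gene results of 1 gene of the receptor list are not reported here.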

Additional observations from a re-analysis of the deposited data

How the results depend on the processing

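Which members were called depended on the procedure, while the direction against CD48dim held in every alternative that gave a value for the 8 tested members other than Plek. Without CD48dim replicate 2 the log2 fold change of Plek was 0.62 in CD48bright and 0.17 in CD34bright, without CD48bright replicate 1 it was 0.21 in CD48bright, and the CD41/CD9-negative value was -0.46 without CD48dim replicate 1 and -0.22 when CD41/CD9-negative replicate 2 was left out. The cause was not tested. With a library left out, the Plek values ran from -0.62 to 0.62 in CD48bright, from -1.08 to 0.17 in CD34bright and from -0.46 to 0.78 in CD41/CD9-negative. Of 15 alternatives, Mmrn1 was called in 14 between CD41/CD9-negative and CD48dim, in 9 between CD48bright and CD48dim and in 6 between CD34bright and CD48dim. Pf4 was called in 12 and F5 in 7 between CD41/CD9-negative and CD48dim.

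For any difference, 322 genes and 1 member were called. This became 344 genes and 2 members with RLE, 1607 and 4 without the filter, 1718 and 4 with DESeq2, and 382 and 2 with limma-voom, and 32 to 3399 genes and 0 to 3 members with a library left out. CD48bright against CD48dim had 51 genes and 1 member, which became 588 genes without the filter, 759 and 2 with DESeq2, 5 and 0 with limma-voom, 0 and 0 in the 4 libraries alone, and 4 to 3211 and 0 to 2 with a library left out. CD34bright against CD48dim had 76 genes and 0 members, which became 1018 and 3 without the filter, 1288 and 3 with DESeq2, 45 and 1 with limma-voom, 0 genes in the 4 libraries alone, and 0 to 3911 and 0 to 4 with a library left out. CD41/CD9-negative against CD48dim had 530 genes and 3 members, which became 1191 genes without the filter, 1536 with DESeq2, 129 and 1 in the 4 libraries alone, and 81 to 3295 and 0 to 4 with a library left out. The highest gene counts of these 4 came without CD48dim replicate 1.

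CD34bright against CD48bright had 0 genes, which became 39 without the filter, 37 with DESeq2 and 0 to 20 with a library left out, with 0 members throughout. CD41/CD9-negative against CD48bright had 28 genes and 0 members, which became 301 and 1 without the filter, 366 and 1 with DESeq2, 13 genes with library totals, 307 and 1 in the 4 libraries alone, and 0 to 435 and 0 to 1 with a library left out. CD41/CD9-negative against CD34bright had 111 genes and 0 members, which became 117 and 1 with RLE, 532 and 1 without the filter, 624 and 1 with DESeq2, 1081 and 1 in the 4 libraries alone, and 3 to 772 and 0 to 1 with a library left out. A population left with 1 library was assumed to vary like the others.

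With the replicate block, the genes called rose to 764 for any difference (2 members), 178 for CD48bright against CD48dim, 682 for CD34bright against CD48dim (1 member), 965 for CD41/CD9-negative against CD48dim, 99 for CD41/CD9-negative against CD48bright and 266 for CD41/CD9-negative against CD34bright (1 member), and stayed at 0 for CD34bright against CD48bright. All genes called without the block were called with it. Library totals moved the median log2 fold change of all genes from -0.07 to -0.22 for CD34bright against CD48dim and from -0.01 to -0.13 for CD34bright against CD48bright. Tubb1 and Ppbp had 13 and 43 counts in all, and the part of depth in this was not tested.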
